A study of Mus musculus with 9 samples.

Results

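The miR-30 family was examined in the quadriceps of adult mice that lack either of the Muscleblind-like splicing regulators MBNL1 and MBNL2. The members were chosen by name, as the 9 mature miRNAs mmu-miR-30a-5p, mmu-miR-30a-3p, mmu-miR-30b-5p, mmu-miR-30b-3p, mmu-miR-30c-5p, mmu-miR-30c-2-3p, mmu-miR-30d-5p, mmu-miR-30d-3p and mmu-miR-30e-5p, out of 1966 mature mouse miRNAs listed in a table of raw small RNA-seq read counts. The prefix is left out from here on. Of the listed miRNAs, 909 were counted in any library. The 9 libraries fall into 3 groups of 3 and were made from total RNA of quadriceps at 90 days of age. Wild-type (WT) mice were C57BL/6J with both genes intact. *Mbnl1*KO mice were C57BL/6J, homozygous for a deletion of *Mbnl1* exon 3 (Mbnl1 ΔE3/ΔE3) with *Mbnl2* intact. *Mbnl2*KO mice had *Mbnl1* intact and carried the strain label B6.C-Tg(CMV-cre)1Cgn/J, a line with Cre under a viral promoter that is active in most tissues, and their *Mbnl2* alleles were labelled differently in each replicate, as ΔE2/ΔE2, ΔE2/ΔE3 and ΔE2/ΔE4. The study's text gives only the ΔE2/ΔE2 genotype for these mice and describes the WT mice as littermates, so the alleles of replicates 2 and 3 are uncertain. They were kept as 1 group as the sample names give it. By the labels their strain differs from that of the other groups, and as labelled, strain and loss of *Mbnl2* cannot be told apart. Small RNA reads do not measure the *Mbnl* mRNAs, so the knockouts could not be checked in these data. The labels number the replicates without saying how the mice were housed or batched, and p-values measure the spread between these libraries.

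MicroRNAs are cut by Drosha and Dicer from hairpin precursors, and the arm that is loaded into Argonaute guides the repression of mRNAs that pair with its seed, the bases near its 5′ end. In the miR-30 family the 5p arms are the usual guide strands. They share a seed, so they are expected to recognise overlapping sets of mRNAs, and they are abundant in heart and skeletal muscle, where mRNAs of fibrosis such as *Ccn2*, which encodes a matricellular growth factor, are known targets. MBNL proteins are zinc finger proteins that bind short GC-centred motifs in RNA and control splicing, polyadenylation and localisation of muscle transcripts.

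The mature sequences are shown because they define what the members share and which of them reads can tell apart. RefSeq (GRCm38.p6) held a sequence for 5 of the 9 members. Capitals mark the seed, bases 2 to 8 counted from the 5′ end.
miR-30a-5p: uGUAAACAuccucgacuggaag
miR-30c-5p: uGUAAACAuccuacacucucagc
miR-30e-5p: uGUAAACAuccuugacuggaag
miR-384-5p: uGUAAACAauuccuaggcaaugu
miR-30a-3p: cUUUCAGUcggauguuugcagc
miR-30e-3p: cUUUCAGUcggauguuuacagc
miR-30c-2-3p: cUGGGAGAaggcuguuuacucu
miR-30c-1-3p: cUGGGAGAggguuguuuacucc
The seed GUAAACA of the 5p arms was found in 4 of the 1675 table entries with a sequence, namely miR-30a-5p, miR-30c-5p, miR-30e-5p and miR-384-5p, a miRNA outside the family by name. The 3 family sequences were identical over their first 12 bases, whereas miR-384-5p shared only the first 8 with them. Between miR-30a-5p and miR-30e-5p there was a single difference, C13U (miR-30a-5p base, position from the 5′ end, miR-30e-5p base), so only reads that extend past this position separate them. The 3p arms carried other seeds. miR-30a-3p differed from miR-30e-3p by G18A alone, and miR-30c-2-3p differed from miR-30c-1-3p by A9G, C12U and U22C.

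The family is encoded by 3 pairs of neighbouring hairpins (GRCm39, GENCODE annotation). *Mir30a* (chr1:23311350-23311420, + strand) lies 19361 bp from *Mir30c-2* (chr1:23330782-23330865, + strand), and these overlap exons of the non-coding transcripts Gm53541 and Gm27028, respectively. *Mir30c-1* (chr4:120626731-120626819, − strand) lies 2983 bp from *Mir30e* (chr4:120629803-120629894, − strand), both within introns of *Nfyc*, which encodes a subunit of the NF-Y transcription factor. *Mir30b* (chr15:68209264-68209359, − strand) lies 3697 bp from *Mir30d* (chr15:68213057-68213138, − strand), and these overlap exons of Gm26621 and of Gm20732 with Gm37296, respectively. The 4 hairpins with a RefSeq sequence (GRCm38.p6) are shown with their mature arms in capitals, since miR-30c-5p is cut from a hairpin of either of 2 loci while each 3p arm belongs to 1.
Mir30a: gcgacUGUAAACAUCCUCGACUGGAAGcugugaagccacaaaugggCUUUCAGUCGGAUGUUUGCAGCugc
Mir30c-2: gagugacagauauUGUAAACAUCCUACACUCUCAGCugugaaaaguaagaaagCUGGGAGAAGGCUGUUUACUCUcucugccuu
Mir30c-1: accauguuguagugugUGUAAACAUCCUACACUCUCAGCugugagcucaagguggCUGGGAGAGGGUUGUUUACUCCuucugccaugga
Mir30e: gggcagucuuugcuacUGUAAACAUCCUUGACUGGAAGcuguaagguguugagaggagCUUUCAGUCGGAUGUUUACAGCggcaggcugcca
The 4-letter motifs UGCU and UGCC or CGCU and CGCC, forms of the sequence that MBNL proteins are known to bind, were searched on the hairpin strand only. *Mir30a* held 0 matches, *Mir30c-1* and *Mir30c-2* held 1 each (UGCC) and *Mir30e* held 2 (UGCU and UGCC), and none of these 4 matches was in the loop between the arms. Such a match was common, with 684 of 1005 mouse hairpins (68.1%) holding at least 1, and a match or its absence is a description of these letters only.

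Library totals ranged from 4761271 to 6277018 counts. miR-1a-3p, a miRNA of striated muscle, made up 69.7 to 71.3% of a WT library, 61.4 to 68.6% of an *Mbnl1*KO library and 67.2 to 73.7% of an *Mbnl2*KO library, and so sets much of what remains for every other miRNA in a library. Levels are therefore given as counts per 1000000 counts after TMM normalization (CPM), which scales libraries on the bulk of the miRNAs, with factors of 0.826 to 1.27. Of 7 miRNAs known from muscle fibres, 6 had counts, and their summed level was 796106 to 846736 CPM in WT, 568637 to 729068 CPM in *Mbnl1*KO and 694800 to 959047 CPM in *Mbnl2*KO, whereas 7 of 8 immune and blood miRNAs summed to only 471 to 597 CPM over all libraries. Most of the fibre sum was miR-1a-3p, at 485015 to 892592 CPM over all libraries. Tested members of the fibre list diverged in *Mbnl1*KO against WT. The log2 fold change was −0.40 for miR-1a-3p, 0.03 for miR-133a-3p, 0.71 for miR-133b-3p, 0.87 for miR-499-5p and 1.93 for miR-206-3p. Of 6 fibroblast and vessel wall miRNAs, 5 had counts, summing to 6254 to 6623 CPM in WT, 5937 to 8551 CPM in *Mbnl1*KO and 7692 to 8689 CPM in *Mbnl2*KO. Log2 fold changes in *Mbnl1*KO against WT diverged in these lists too. They ran from −0.87 (miR-223-3p) to 0.86 (miR-155-5p) for tested immune and blood miRNAs. For fibroblast and vessel wall miRNAs they ran from −0.43 (miR-199a-3p) to 0.27 (miR-143-3p). The sums thus do not stand for a shared change of their members. miR-486a-5p, miR-142a-3p and miR-126a-3p of these lists were listed at 0 in every library, so an entry at 0 is given here as listed and not as absent. The part of these shifts in the results below was not tested, and in whole muscle fewer cells of a type and less RNA per cell cannot be told apart.

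The 9 members spanned over 4 orders of magnitude, with the 5p arms far above the 3p arms. Mature arms have nearly the same length, so levels are set side by side without a length correction, although adapter ligation in small RNA libraries is known to depend on sequence and its part in the order of the members was not tested. miR-30a-5p was the third most abundant of all miRNAs in every library. Its level was 42741, 41858 and 34266 CPM in WT, 32715, 32830 and 37504 CPM in *Mbnl1*KO and 44431, 43091 and 38794 CPM in *Mbnl2*KO. The *Mbnl1*KO libraries were below all *Mbnl2*KO libraries and overlapped WT through WT replicate 3, the lowest WT library for all 5 of the 5p arms. miR-30d-5p, which ranked 7 by its mean, had 16115, 16272 and 13338 CPM in WT, 13873, 12734 and 15966 CPM in *Mbnl1*KO and 15556, 16741 and 14975 CPM in *Mbnl2*KO, with all groups overlapping. miR-30c-5p, rank 9, had 9661, 10771 and 8022 CPM in WT, 7284, 8518 and 7917 CPM in *Mbnl1*KO and 10694, 9708 and 10378 CPM in *Mbnl2*KO, and here too the *Mbnl1*KO range lay below the *Mbnl2*KO range and overlapped WT.

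miR-30e-5p differed from the other guide arms in which libraries were highest. It ranked 12 and had 7604, 6703 and 6086 CPM in WT, 6502, 8839 and 7821 CPM in *Mbnl1*KO and 7447, 6881 and 6740 CPM in *Mbnl2*KO. The highest of the 9 values and the second highest were *Mbnl1*KO libraries, in contrast to every other 5p arm. However, *Mbnl1*KO replicate 1 was the second lowest, and all groups overlapped. miR-30b-5p, rank 44, was the least abundant guide arm with 628, 774 and 585 CPM in WT, 451, 646 and 521 CPM in *Mbnl1*KO and 702, 632 and 671 CPM in *Mbnl2*KO. In this order the ranges of neighbours were separate between miR-30a-5p, miR-30d-5p and miR-30c-5p, while the ranges of miR-30c-5p and miR-30e-5p over all libraries overlapped, as did those of miR-30b-5p and miR-30a-3p.

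**Figure D1:**
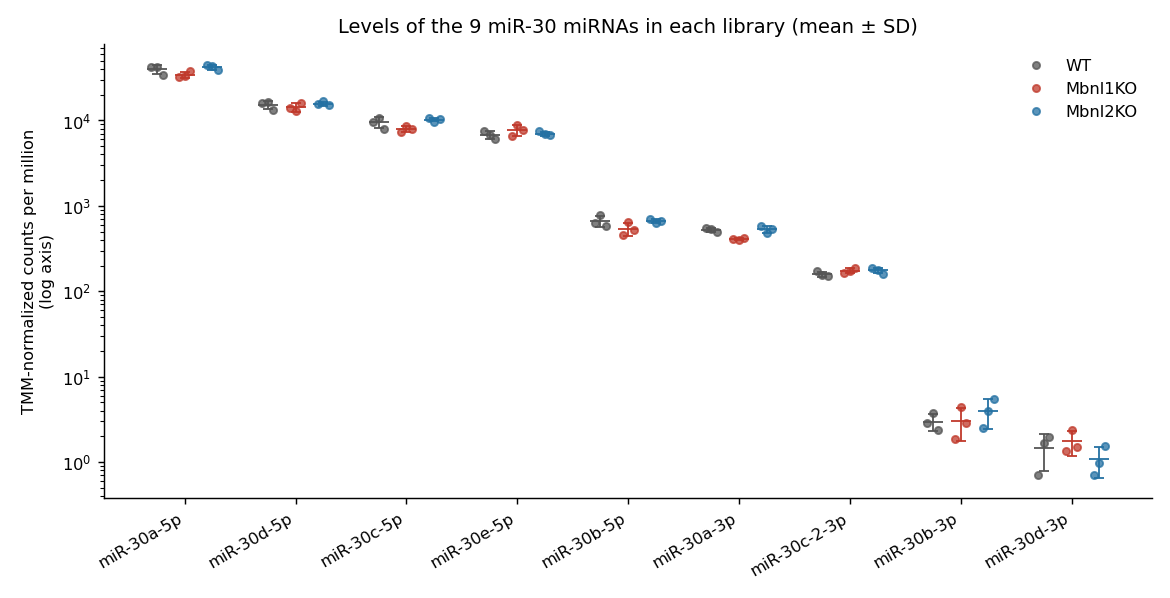
Level of each miR-30 miRNA in CPM (TMM-normalized, log axis), for 3 WT, 3 *Mbnl1*KO and 3 *Mbnl2*KO libraries (points), with group mean ± SD (bars). The 4 most abundant 5p arms lie between 6086 and 44431 CPM in all libraries, miR-30b-5p and the 3p arms miR-30a-3p and miR-30c-2-3p lie between 151 and 774 CPM, and the 3p arms of miR-30b and miR-30d lie under 6 CPM.

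Among the 3p arms, which are mostly discarded as passenger strands, miR-30a-3p was the most abundant. It had 552, 530 and 495 CPM in WT, 414, 395 and 420 CPM in *Mbnl1*KO and 576, 477 and 536 CPM in *Mbnl2*KO. All *Mbnl1*KO values lay below all values of both other groups. miR-30c-2-3p had 171, 155 and 151 CPM in WT, 163, 174 and 185 CPM in *Mbnl1*KO and 188, 178 and 161 CPM in *Mbnl2*KO, with all groups overlapping. miR-30b-3p and miR-30d-3p were near the lower limit of these libraries. The raw count of miR-30b-3p was 16, 22 and 11 in WT, 14, 24 and 19 in *Mbnl1*KO and 14, 24 and 25 in *Mbnl2*KO. That of miR-30d-3p was 4, 10 and 9 in WT, 10, 13 and 10 in *Mbnl1*KO and 4, 6 and 7 in *Mbnl2*KO. At this depth a count of 4 has an exact 95% Poisson interval of 1.09 to 10.2 and a count of 25 one of 16.2 to 36.9, covering counting error only, and in CPM the groups overlapped for both arms.

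The table held 3 further entries with the family's name. miR-30c-1-3p had raw counts of 7, 14 and 16 in WT, 20, 18 and 16 in *Mbnl1*KO and 12, 12 and 3 in *Mbnl2*KO, and did not pass the test in any comparison (edgeR adjusted p of 0.264 to 0.747). miR-30e-3p and miR-30f, which is annotated on the opposite strand of *Mir30e*, were listed at 0 in all 9 libraries. miR-384-5p, with the same seed as the 5p arms, was rare as well, with raw counts of 3, 7 and 9 in WT, 16, 23 and 15 in *Mbnl1*KO and 7, 10 and 6 in *Mbnl2*KO. Its *Mbnl1*KO counts were above those of both other groups. It passed the filter on mean counts described below only through *Mbnl1*KO, the group in which it was high, so its log2 fold changes in *Mbnl1*KO, 1.17 ± 0.45 (SE) against WT and 0.94 ± 0.46 against *Mbnl2*KO, are given as a description with no test.

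The sum of the 9 members was 7.12, 7.46 and 6.097% of the library in WT, 7.77, 6.67 and 7.41% in *Mbnl1*KO and 7.53, 8.32 and 5.97% in *Mbnl2*KO. All groups overlapped in this share, of which miR-1a-3p is the largest part of the denominator. As a percentage of the counts other than miR-1a-3p, the family made up 24.9, 24.9 and 20.1% in WT, 20.1, 21.3 and 21.5% in *Mbnl1*KO and 24.8, 25.4 and 22.7% in *Mbnl2*KO. By this measure the *Mbnl1*KO libraries lay below all *Mbnl2*KO libraries and overlapped WT only through WT replicate 3. In TMM-normalized counts the sum was 72497 ± 8274 CPM in WT, 65295 ± 4576 CPM in *Mbnl1*KO and 76524 ± 3809 CPM in *Mbnl2*KO (mean ± SD, n = 3 each). The 5p arms made up 99.0 to 99.1% of the sum in every library, so it is a measure of guide strands and, since miR-30a-5p is their largest part, chiefly of that miRNA.

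To ask whether loss of MBNL1 was accompanied by a change in the family, each member was tested in *Mbnl1*KO against WT by quasi-likelihood fits in edgeR over all 317 miRNAs whose mean normalized count exceeded 10. 8 of the 9 members passed this filter, all but miR-30d-3p, and 2 of the 8 were called at an adjusted p under 0.05, both lower in *Mbnl1*KO. Over all miRNAs tested 33.1% were called and 14.2% were called lower. miR-30a-3p fell by 0.43 ± 0.15 on the log2 scale (adjusted p of 0.0146, 0.741-fold), and miR-30b-5p fell by 0.36 ± 0.15 (adjusted p of 0.0497, 0.777-fold). The other 4 negative changes were those of miR-30c-5p (log2 fold change of −0.33 ± 0.15, adjusted p of 0.0714), miR-30a-5p (−0.28 ± 0.15, 0.146), miR-30d-5p (−0.18 ± 0.15, 0.363) and miR-30b-3p (−0.08 ± 0.38, 0.890), while miR-30e-5p (0.11 ± 0.15, 0.606) and miR-30c-2-3p (0.06 ± 0.16, 0.797) had positive values. None of these 6 passed the test. The median of the 8 members was −0.23, compared with −0.01 over all miRNAs tested. The groups did not overlap for 1 of the 8, miR-30a-3p, against 42.6% of all miRNAs tested. The members' share of calls was thus below the background in either direction and above it for lower calls alone, and with 8 members no test of these shares was made.

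These calls depended on single libraries, on the scaling and, for miR-30b-5p, on most other settings. The call of miR-30a-3p was lost without WT replicate 1 (adjusted p of 0.106) and held in the other 5 fits that left out a library, whereas that of miR-30b-5p was lost without WT replicate 1 (0.123), WT replicate 2 (0.283), *Mbnl1*KO replicate 1 (0.281) or *Mbnl1*KO replicate 3 (0.148). miR-30c-5p passed without WT replicate 3 (0.0163) or *Mbnl1*KO replicate 2 (0.0351). With library totals in place of TMM, the median change of all miRNAs moved from −0.01 to 0.30, beside the lower share of miR-1a-3p in *Mbnl1*KO, and that of the members from −0.23 to 0.08. No member was then called. The log2 fold change shrank to −0.12 for miR-30a-3p (adjusted p of 0.643) and −0.08 for miR-30b-5p (0.770). The values of miR-30a-5p, miR-30d-5p and miR-30b-3p turned positive. In either scaling the members' median lay below that of all miRNAs. With totals without miR-1a-3p the adjusted p was 0.0514 for miR-30a-3p and 0.136 for miR-30b-5p. The call of miR-30b-5p was also lost in DESeq2's Wald test (0.0836), with no filter (0.104) or a filter of 100 (0.0793), in 1 fit over all libraries (0.0622) and with the replicate block (0.0593), whereas that of miR-30a-3p held in all 5.

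In *Mbnl2*KO against WT, 0 of the 8 tested members were called, against a background of 5.80% of 293 miRNAs. The log2 fold changes were small for the 7 members with more than a few counts, from 0.01 ± 0.13 for miR-30a-3p to 0.14 ± 0.14 for miR-30c-2-3p, and 0.38 ± 0.38 for miR-30b-3p. Adjusted p ranged from 0.593 to 0.981. No member had an unadjusted p under 0.05 in edgeR, and DESeq2 likewise called 0. The median of the members was 0.06 and that of all miRNAs 0.02. The ranges of the groups overlapped for all 8, compared with 24.9% of miRNAs for which they did not.

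The direct comparison of the knockouts, which uses the same *Mbnl1*KO and *Mbnl2*KO libraries as above without WT, gave 3 calls among 8 members, all lower in *Mbnl1*KO. Here 26.9% of the 309 miRNAs tested were called and 11.7% were called lower, a smaller share than the members', for which no test was made since arms of 1 hairpin are not independent. miR-30c-5p had a log2 fold change of −0.42 ± 0.11 (edgeR adjusted p of 0.00932, 0.746-fold), miR-30a-3p one of −0.42 ± 0.12 (0.0193, 0.748-fold) and miR-30a-5p one of −0.34 ± 0.11 (0.0345, 0.788-fold). For these 3 members the groups did not overlap, as was the case for 46.0% of all miRNAs tested. miR-30b-5p had a value in the same range that did not pass (−0.35 ± 0.14, adjusted p of 0.0725). miR-30d-5p (−0.20 ± 0.12, 0.214), miR-30b-3p (−0.45 ± 0.41, 0.417) and miR-30c-2-3p (−0.06 ± 0.14, 0.721) did not pass either, and miR-30e-5p was here the only member with a positive value (0.09 ± 0.12, 0.581). The median of the members was −0.35 and that of all miRNAs 0.07.

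**Figure D2:**
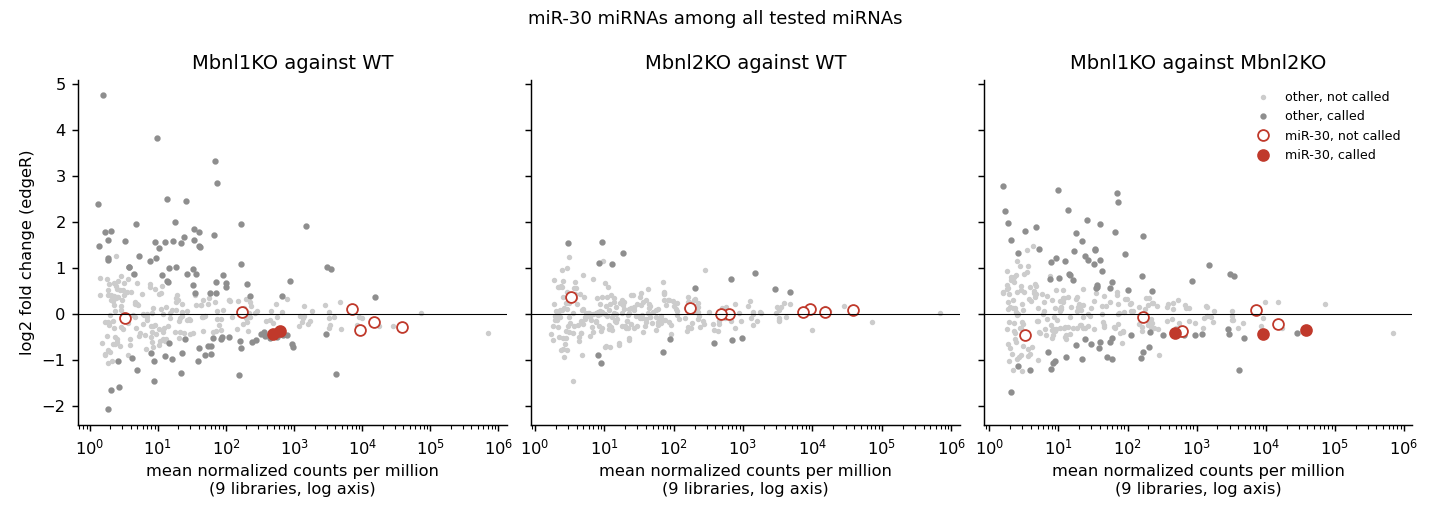
Log2 fold change of each tested miRNA against its mean CPM over the 9 libraries (log axis) in the 3 comparisons, with the 8 tested miR-30 miRNAs as circles, filled where the adjusted p was under 0.05. The family has 2, 0 and 3 called members, and its values lie between −0.45 and 0.38, with medians of −0.23, 0.06 and −0.35 against −0.01, 0.02 and 0.07 over all tested miRNAs.

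Of the 3 calls between the knockouts, that of miR-30c-5p held whichever of the 6 libraries was left out. The call of miR-30a-3p was lost without *Mbnl1*KO replicate 3 (adjusted p of 0.0588) or *Mbnl2*KO replicate 1 (0.0810), and that of miR-30a-5p without *Mbnl1*KO replicate 1 (0.0865), *Mbnl2*KO replicate 1 (0.143) or *Mbnl2*KO replicate 2 (0.109). miR-30b-5p passed without *Mbnl1*KO replicate 2 (0.0101). With library totals, where the median of all miRNAs was 0.36 and that of the members −0.07, no member was called. The log2 fold change was then −0.14 for miR-30c-5p (adjusted p of 0.608), −0.12 for miR-30a-3p and −0.06 for miR-30a-5p. The call of miR-30a-5p was also lost with totals without miR-1a-3p (0.0686), no filter (0.140), a filter of 100 (0.0506), 1 fit over all libraries (0.0528) and the replicate block (0.118), and that of miR-30a-3p with totals without miR-1a-3p (0.0502) and no filter (0.0755), while that of miR-30c-5p was lost with library totals only.

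**Figure D3:**
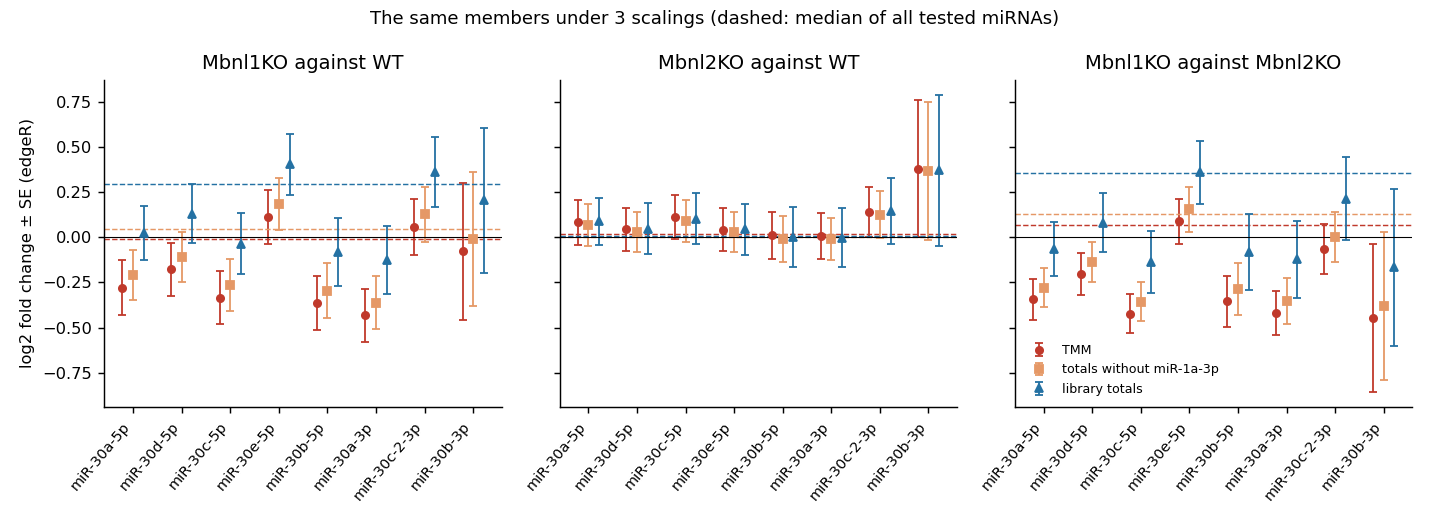
Log2 fold change ± SE of the 8 tested members in the 3 comparisons under TMM, under library totals and under totals without miR-1a-3p, with the median of all tested miRNAs under each scaling as a dashed line. The members shift together with the dashed lines in both comparisons with *Mbnl1*KO, where the median of all miRNAs moves from −0.01 to 0.30 and from 0.07 to 0.36, and hardly move in *Mbnl2*KO against WT.

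The composition of the family does not depend on how libraries are scaled. Here the *Mbnl1*KO libraries lay above the others for miR-30e-5p, below them for miR-30a-5p, and overlapped them for the remaining guide arms. Each 5p arm was expressed as a percentage of the summed 5p counts of its library. miR-30e-5p made up 9.91, 8.78 and 9.77% in WT, 10.7, 13.9 and 11.2% in *Mbnl1*KO and 9.45, 8.93 and 9.42% in *Mbnl2*KO. Every *Mbnl1*KO library was above every library of the other groups, with means of 11.9 ± 1.72% against 9.48 ± 0.62% in WT and 9.27 ± 0.29% in *Mbnl2*KO (SD, n = 3). miR-30a-5p made up 55.7, 54.8 and 55.0% in WT, 53.8, 51.6 and 53.8% in *Mbnl1*KO and 56.4, 55.9 and 54.2% in *Mbnl2*KO. Here every *Mbnl1*KO library was below every other, with a difference of means of −2.09 percentage points against WT and −2.43 against *Mbnl2*KO. *Mbnl1*KO replicate 2 was the most extreme library for both miRNAs. Without it the difference from WT was −1.38 points for miR-30a-5p and 1.47 in place of 2.45 points for miR-30e-5p, and that from *Mbnl2*KO was 1.69 in place of 2.67 points for miR-30e-5p. The shares of miR-30d-5p (21.2, 21.9 and 20.8% in WT, *Mbnl1*KO and *Mbnl2*KO), miR-30c-5p (13.2, 12.2 and 13.6%) and miR-30b-5p (0.92, 0.84 and 0.88%) overlapped between all groups. These shares sum to a whole, so they are not independent of each other, and they were given no test. Beside them, the CPM of all miRNAs tested did not overlap for 42.6% in *Mbnl1*KO against WT and 46.0% between the knockouts. Such a separation of groups was thus common.

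**Figure D4:**
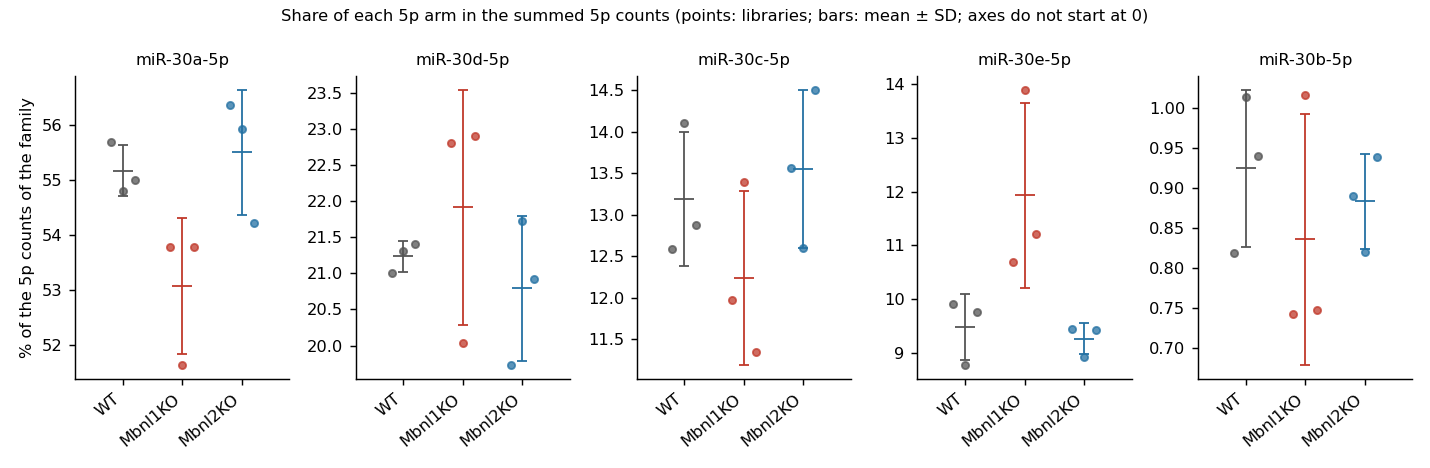
Share of each of the 5 guide arms in the summed 5p counts of a library, in percent, for each library (points) with group mean ± SD (bars). Axes do not start at 0. The *Mbnl1*KO libraries are lowest for miR-30a-5p, at 51.6 to 53.8%, and highest for miR-30e-5p, at 10.7 to 13.9%.

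Members of 1 genomic pair were compared within each library. miR-30c-5p and miR-30e-5p share the *Nfyc* introns, although miR-30c-5p is also cut from *Mir30c-2*. Their ratio was 1.27, 1.61 and 1.32 in WT, 1.12, 0.964 and 1.01 in *Mbnl1*KO and 1.44, 1.41 and 1.54 in *Mbnl2*KO. The *Mbnl1*KO libraries, in which both miRNAs were about equally abundant, did not overlap either other group, and the log2 ratio was lower by 0.43 than in WT and by 0.50 than in *Mbnl2*KO. On chromosome 1, the log2 ratio of miR-30a-5p to miR-30c-2-3p was 7.96 ± 0.12 in WT, 7.62 ± 0.06 in *Mbnl1*KO and 7.90 ± 0.02 in *Mbnl2*KO (SD, n = 3), and again the *Mbnl1*KO libraries lay below both other groups. On chromosome 15, the log2 ratio of miR-30b-5p to miR-30d-5p was −4.53 ± 0.14, −4.73 ± 0.37 and −4.56 ± 0.15, respectively, with all groups overlapping and *Mbnl1*KO replicate 2 above every other library. The log2 difference was −0.20 against WT and −0.17 against *Mbnl2*KO, and −0.41 and −0.38 without that library. These ratios were given no test. Over all miRNAs tested, groups did not overlap in CPM for 42.6% in *Mbnl1*KO against WT and 46.0% between the knockouts.

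The ratio of the 5p to the 3p arm of 1 hairpin was compared next. For miR-30c-5p to miR-30c-2-3p it was 56.5, 69.3 and 53.2 in WT, 44.7, 48.9 and 42.7 in *Mbnl1*KO and 56.8, 54.4 and 64.5 in *Mbnl2*KO. All *Mbnl1*KO values were below all others, with a log2 difference of −0.39 ± 0.13 (SE) against WT and −0.36 ± 0.09 against *Mbnl2*KO. With 3 libraries a group the 2-sided exact permutation test cannot go below 0.1, which both comparisons reached, and over 12 such comparisons the adjusted value was 0.4. Since the numerator also holds miR-30c-5p from *Mir30c-1*, this ratio mixes 2 loci. It shares miRNAs with the ratios of miR-30c-5p to miR-30e-5p and of miR-30a-5p to miR-30c-2-3p, so these are not independent. For miR-30a-5p to miR-30a-3p the ratio was 77.4, 79.0 and 69.3 in WT, 79.0, 83.1 and 89.3 in *Mbnl1*KO and 77.2, 90.2 and 72.3 in *Mbnl2*KO. The *Mbnl1*KO values lay above WT, the lowest of them only just, with a log2 difference of 0.16 ± 0.08 (exact permutation p of 0.1, adjusted 0.4), or 0.099 without WT replicate 3, and overlapped *Mbnl2*KO. Of the hairpins on chromosome 1, the mean arm ratio in *Mbnl1*KO thus lay above WT for miR-30a and below it for miR-30c-2, and this contrast between hairpins was not tested.

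The arm ratios of the chromosome 15 hairpins were much larger and less precise. The 5p arm of miR-30b exceeded its 3p arm 119 to 273 times, and that of miR-30d exceeded its 3p arm 5171 to 20245 times, with the latter resting on 4 to 13 counts of miR-30d-3p in a library. All groups overlapped for both, and the exact permutation p was 0.3 to 0.9.

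**Figure D5:**
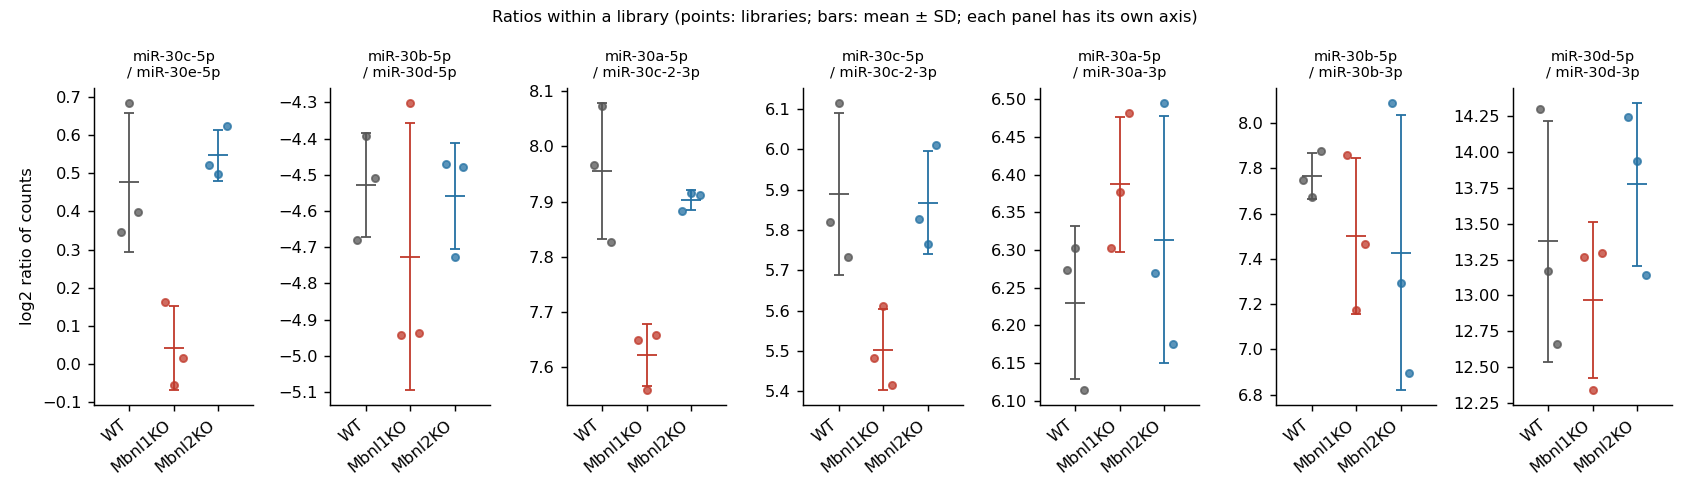
Log2 ratios of counts within a library for members of 1 genomic pair (the first 3 panels) and for the arms of 1 hairpin (the other 4 panels), each library a point, with group mean ± SD as bars. Each panel has its own axis. *Mbnl1*KO libraries lie below both other groups for miR-30c-5p to miR-30e-5p, miR-30a-5p to miR-30c-2-3p and miR-30c-5p to miR-30c-2-3p, and all groups overlap for miR-30b and miR-30d. The ratios that lie apart share miRNAs and are not independent.

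The members were also compared in how they varied over all libraries. Over the 9 libraries, the log2 level of miR-30a-5p had a Pearson r of 0.99 with the summed 5p arms, of which it is the largest part, miR-30d-5p of 0.87, miR-30c-5p of 0.86, miR-30a-3p of 0.72, miR-30b-5p of 0.67 and miR-30e-5p of 0.12. Between guide arms, r was 0.91 for miR-30b-5p with miR-30c-5p, which lie on different chromosomes, 0.88 for miR-30a-5p with miR-30d-5p and 0.32 for miR-30b-5p with its neighbour miR-30d-5p, while miR-30e-5p had values of −0.07 to 0.13 with the other 4. Of 301 other miRNAs, those most like the summed 5p arms were miR-323-3p (0.84), miR-653-5p (0.84), miR-204-5p (0.79), miR-99b-5p (0.78) and miR-125a-5p (0.78). These values describe 9 libraries in 3 groups that share scaling and depth, and they carry no test. They include the differences between groups given above, so they are no separate evidence for them. Within WT and within *Mbnl2*KO, the library with the highest miR-30a-5p level also had the highest miR-30e-5p level, and the lowest in 1 was the lowest in the other. Within *Mbnl1*KO, replicate 1 was the lowest for both, while replicate 3 was the highest for miR-30a-5p and replicate 2 for miR-30e-5p.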

How the data were processed

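Small RNA-seq of quadriceps was analysed in 3 WT, 3 *Mbnl1*KO and 3 *Mbnl2*KO mice. The authors deposited 1 table of raw read counts per mature miRNA, with no normalization. Per the study's methods, libraries were made with a NEXTflex kit, adapters were clipped, identical reads were collapsed, and reads were matched to miRBase precursors without mismatches. Whether this counting made the deposited counts is not stated, and no molecular identifiers are described. The submitters' processing notes name DESeq2, without a version for these libraries.

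Members, lists and tests were chosen with earlier results of these data known. Named are the 9 members, other entries with the family name or the 5p seed, the 5 miRNAs most like the summed 5p arms (Pearson r of log2(CPM + 1)) and miR-1a-3p. Groups were fitted in pairs with edgeR 4.0.16 (glmQLFit, robust, TMM; R 4.3.3, limma 3.58.1), keeping miRNAs whose mean normalized count exceeded 10, with Benjamini-Hochberg adjustment over all of them and a threshold of 0.05. Comparisons with WT share its libraries. CPM and group overlap use 1 TMM scaling over 9 libraries. Arm ratios used a pseudocount of 0.5 and exact permutation tests (SciPy 1.17.1). The fits were tested on simulated data. Alternatives were DESeq2 1.42.0, other scalings and filters, a threshold of 0.01, 1 fit over 9 libraries, a replicate block, a pseudocount of 5 and leaving out each library.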

Additional observations from a re-analysis of the deposited data

How the results depend on the processing

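Called members numbered 2 in *Mbnl1*KO against WT and 3 in *Mbnl1*KO against *Mbnl2*KO. In the former the count was 0 with library totals, totals without miR-1a-3p or a threshold of 0.01, and 1 with DESeq2's Wald test, no filter, a filter of 100, 1 fit over 9 libraries or the replicate block. In the latter it was 0 with library totals, and 1 with totals without miR-1a-3p, no filter or a threshold of 0.01, and 2 with a filter of 100, 1 fit over 9 libraries or the replicate block. Where 1 was left, it was miR-30a-3p in the former (miR-30b-5p lost) and miR-30c-5p in the latter. Leaving out 1 library gave 0 to 3 and 1 to 4, respectively. The former was 0 without WT replicate 1 and 1 without WT replicate 2, *Mbnl1*KO replicate 1 or *Mbnl1*KO replicate 3, and the latter was 1 without *Mbnl2*KO replicate 1. In *Mbnl2*KO against WT the count was 0 in all alternatives.

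Over all miRNAs, 57.1, 58.8 and 56.6% of the calls were higher in *Mbnl1*KO against WT, *Mbnl2*KO against WT and *Mbnl1*KO against *Mbnl2*KO, compared with 90.1, 71.4 and 93.5% with library totals and 65.6, 57.1 and 70.9% with totals without miR-1a-3p. A filter of 100 left 68 calls in *Mbnl1*KO against WT, and a threshold of 0.01 left 45 between the knockouts. In *Mbnl2*KO against WT, 7 were called with library totals, 9 with a filter of 100, 11 with 1 fit over 9 libraries, 6 at a threshold of 0.01 and 6 to 25 with 1 library left out (10 without WT replicate 1, 6 without WT replicate 2, 8 without *Mbnl2*KO replicate 1), against 17.

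The sum of the members, −0.15 on the log2 scale in *Mbnl1*KO against WT and −0.23 against *Mbnl2*KO, was 0.082 and 0.013 with library totals. The former was −0.23 with DESeq2 size factors, −0.083 without miR-30a-5p, −0.25 without WT replicate 3 and −0.095 without WT replicate 1, and the latter was −0.16 without miR-30a-5p. In *Mbnl2*KO against WT the sum, 0.083, was −0.015 without WT replicate 3. Signs of single members turned only where no call was made. With library totals, miR-30a-5p was 0.026, miR-30b-3p 0.21 and miR-30d-5p 0.13 in *Mbnl1*KO against WT, and miR-30c-2-3p 0.22 and miR-30d-5p 0.08 against *Mbnl2*KO, where totals without miR-1a-3p gave 0.0015 for miR-30c-2-3p. In *Mbnl2*KO against WT, miR-30a-3p was −0.0088 with DESeq2 size factors, −0.0013 with library totals, −0.010 with totals without miR-1a-3p, −0.0089 with DESeq2's test, −9.1e-06 with a filter of 100 and −0.015 with 1 fit over 9 libraries, and miR-30b-5p was −0.0080, −0.0090 (totals without miR-1a-3p), −0.0081 (DESeq2's test) and −0.011 (1 fit).

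With 1 library left out, values in *Mbnl1*KO against WT ran from −0.40 to 0.20 for miR-30b-3p and −0.0054 to 0.14 for miR-30c-2-3p, with no turn of sign from −0.40 to −0.19 for miR-30a-5p, −0.29 to −0.088 for miR-30d-5p and 0.011 to 0.24 for miR-30e-5p, and against *Mbnl2*KO from −0.064 to 0.21 for miR-30e-5p, negative without *Mbnl1*KO replicate 2. In *Mbnl2*KO against WT they ran from −0.018 to 0.14 for miR-30a-5p, −0.096 to 0.10 for miR-30a-3p, −0.077 to 0.13 for miR-30b-5p, −0.0026 to 0.20 for miR-30c-5p, −0.051 to 0.082 for miR-30d-5p and −0.041 to 0.13 for miR-30e-5p. Log2 arm ratios ran from −0.77 to 0.052 for miR-30d (*Mbnl1*KO against WT), −0.0073 to 0.15 for miR-30a and −0.10 to 0.091 for miR-30c-2 (*Mbnl2*KO against WT), and −0.19 to 0.40 for miR-30b (between the knockouts). Differences without *Mbnl1*KO replicate 2 stand beside the values only for some comparisons. These are the share of miR-30a-5p against WT, the share of miR-30e-5p and the ratio of miR-30b-5p to miR-30d-5p. For shares and ratios within a genomic pair, differences between groups that overlap also moved by over 1.5 times with other libraries left out. The causes of these differences were not tested.

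Libraries with the same replicate number did not deviate together more than others did. Their correlations were −0.15 to 0.10, and those of libraries with different numbers −0.16 to 0.16. No pairing by number was seen, but with 3 libraries a group this cannot exclude it. With the replicate block, 92, 21 and 80 miRNAs and 1, 0 and 2 members were called in *Mbnl1*KO against WT, *Mbnl2*KO against WT and between the knockouts. Depth limits miR-30b-3p and miR-30d-3p, whose counts were 4 to 25 a library.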
